A study of Mus musculus with 2 samples.

Results

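The C/EBP proteins are transcription factors with a basic leucine zipper, a domain that binds DNA once 2 family members have paired. In myeloid cells C/EBPα, encoded by Cebpa, is known for setting up macrophage and granulocyte identity. C/EBPβ, encoded by Cebpb, is known as a factor of inflammatory and acute-phase responses, and its gene is induced within a short time by signals such as cytokines, cAMP and Toll-like receptor ligands. C/EBPγ, encoded by Cebpg, lacks a conventional activation domain, pairs with the other members and with ATF4, and is made in many cell types. The members were chosen by gene symbol from a list of 4 names, Cebpa, Cebpb, Cebpd and Cebpg. Of these, 3 were found among the 27998 genes in the files, and Cebpd, which encodes C/EBPδ, was not analysed here. The choice was made with the Cebpb difference between the libraries known, so the levels below are a description and carry no test.

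Both libraries were made from spinal cord cells of mice on the C57BL/6J background labelled with the strain Cx3cr1-CreERT2-YFP::flxRunx1 in both groups, although the control group is also labelled wild type. Cx3cr1 is a chemokine receptor gene of microglia, the macrophages of the central nervous system, and of other mononuclear phagocytes, and drove both the inducible Cre and the yellow fluorescent protein used for sorting. The library labelled wild type came from vehicle-injected mice and the library labelled Runx1 knock-out from mice given tamoxifen at 1 mg per day in 5 daily injections, with tissue taken 4 weeks after the first. They are called the vehicle library and the tamoxifen library here. In both groups the tissue was digested with collagenase at 2 mg per ml for 30 min at 37 °C. The part of this digestion in the levels below was not tested. Loss of Runx1 and exposure to tamoxifen cannot be told apart. The sources used here do not give the number of animals per library, and with 1 library per group no test between the groups was possible. Every interval below is a 95% interval of counting error and holds no variation between animals or preparations. Those of levels and ratios also leave out the spread between the cells of a library.

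The files held 4582 barcodes with a median of 6376 unique molecular identifiers (UMIs, which count captured transcripts) for the vehicle library and 2604 with a median of 3715.5 for the tamoxifen library. The 2 libraries shared 9 cell barcodes. Levels are in CPM, the UMIs of a gene divided by all UMIs of the class and scaled to the usual fixed total. Runx1, the targeted gene, was at 92.7 CPM in microglia-like cells of the vehicle library and at 181 CPM in those of the tamoxifen library, a log2 ratio of 0.96 (0.85 to 1.08). The tags lie at the 3′ end of transcripts and which exons were removed is not stated in the labels, so this does not check the genotype. Ratios below are tamoxifen over vehicle. Clusters were built without the C/EBP members and named by markers: 2183 and 1353 cells were microglia-like, 1637 and 838 endothelial-like, 192 and 139 pericyte or smooth muscle-like, and 55 and 74 erythrocyte-like. All 2183 microglia-like cells of the vehicle library fell in cluster 0, whereas 1349 of the 1353 from the tamoxifen library fell in cluster 2. None of the 12 microglia markers was at 0 in the class in either library, and they summed to 18386 and 22773 CPM.

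Cebpb lies at chr2:167688915-167690418 on the plus strand of GRCm38 and has 1 exon. Cebpa lies at chr7:35119293-35121928 on the plus strand and has protein-coding transcripts of 1 and 2 exons. Cebpg lies at chr7:35046422-35056573 on the minus strand, has 2 exons and starts 62720 bases from the start of Cebpa, in the opposite direction. The bases before each start are shown because the levels of the 3 genes differed between the libraries by unlike amounts. For Cebpg, 7 bases next to the start are left out because an annotated exon reaches into them. They are RefSeq sequences on GRCm38.p6, read 5′ to 3′ on the strand of the gene, at chr2:167688665-167688914, chr7:35119043-35119292 and chr7:35056574-35056816. Capitals mark matches on either strand to TGACG, the inner part of a cAMP response element. In the Cebpa window they mark a TATA box, with the letters TATAAA.
Cebpb: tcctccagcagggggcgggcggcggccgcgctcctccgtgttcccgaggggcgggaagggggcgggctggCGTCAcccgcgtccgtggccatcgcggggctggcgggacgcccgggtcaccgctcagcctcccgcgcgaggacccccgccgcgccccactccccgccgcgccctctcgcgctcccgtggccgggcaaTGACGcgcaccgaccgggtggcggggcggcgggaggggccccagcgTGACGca
Cebpa: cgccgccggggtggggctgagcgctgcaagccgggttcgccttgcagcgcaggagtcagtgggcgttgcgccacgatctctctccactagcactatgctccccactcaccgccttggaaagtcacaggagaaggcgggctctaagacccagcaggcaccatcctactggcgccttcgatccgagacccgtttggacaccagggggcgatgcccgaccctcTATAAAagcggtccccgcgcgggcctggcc
Cebpg: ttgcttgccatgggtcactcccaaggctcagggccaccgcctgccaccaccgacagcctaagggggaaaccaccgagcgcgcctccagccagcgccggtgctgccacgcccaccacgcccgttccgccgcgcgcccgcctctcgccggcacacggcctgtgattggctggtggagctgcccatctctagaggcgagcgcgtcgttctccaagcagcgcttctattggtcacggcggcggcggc

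The Cebpb window held TGACG on either strand 3 times, starting 180, 53 and 7 bases before the start, and the windows of Cebpa and Cebpg did not hold it. Among 32851 windows of 250 bases, 17.8% held TGACG on at least 1 strand. TATAAA started 30 bases before the start of Cebpa and was present in 12.4% of the windows. Also searched on both strands were the RUNX letters TGTGGT (14% of windows), the C/EBP letters TTGCNNAA (9.56%) and the STAT letters TTCNNNGAA (7.02%). None of these last 3 motifs was found in the windows of Cebpa, Cebpb or Cebpg, which says only that these letters are not there. The Cebpb window was 81.6% G or C, beside 66.4% for Cebpa and 70.4% for Cebpg.

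In microglia-like cells the 3 members differed between the libraries by unlike amounts. Cebpb was at 219 CPM (212 to 226) in the vehicle library, from 3449 UMIs, and at 1134 CPM (1107 to 1161) in the tamoxifen library, from 6958 UMIs. The counting intervals of the libraries did not overlap, and the levels differed by 5.18-fold, a log2 ratio of 2.37 (2.31 to 2.43). That was rank 6 from the highest among 5754 genes with at least 20 CPM in either library. Cebpg was at 138 CPM (133 to 144) and 200.3 CPM (189 to 212), a log2 ratio of 0.53 (0.43 to 0.64). Cebpa was at 114 CPM (108 to 119) and 158 CPM (148 to 168), a log2 ratio of 0.47 (0.36 to 0.59). Of the 3 members, 1 lay past 2-fold higher, beside 1.82% of all measured genes, and 0 lay past 2-fold lower, beside 5.4%. The 3 ratios lay above 0, as did 46.6% of measured genes, whose median was -0.04. The members' own ratios were known when they were chosen, so these shares are printed for scale only.

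A gene on the opposite strand overlaps each of the 3 loci. Tmem189, which overlaps Cebpb, was at 28.4 and 31.4 CPM in microglia-like cells, with a log2 ratio of 0.15 (-0.11 to 0.39). The antisense gene at Cebpa, ENSMUSG00000108624, had 13 UMIs in the vehicle library and 1 in the other, and the one at Cebpg, ENSMUSG00000108333, had 0 in both. The sources used here do not say whether counting used strand, so whether reads of a gene and its antisense partner were told apart is not known here.

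RNA of other cell types moved with the library too. In microglia-like cells all 9 endothelial markers were lower in the tamoxifen library, at a summed 6725 CPM against 2199 CPM, and none of them was at 0. All 9 pericyte or smooth muscle markers were lower as well, at 335 and 152 CPM. Neutrophil markers summed to 258 and 136 CPM, with 7 of 9 lower and Mmp9 at 0 in the tamoxifen library. Other lists were higher in the tamoxifen library: Schwann cell markers at 365 and 556 CPM, B cell markers at 31.2 and 37.3 CPM and dendritic cell markers at 6.54 and 8.47 CPM. The part of these other RNAs in the small ratios of Cebpa and Cebpg was not tested. With a background scaled on the endothelial markers taken out, at its upper limit of 50.1% of UMIs in the vehicle and 19.8% in the tamoxifen library, Cebpb was at 311 and 1254 CPM, a log2 ratio of 2.01. With the same removal Cebpa was at 153 and 174 CPM, a log2 ratio of 0.18, and Cebpg at 141 and 207 CPM.

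The levels of the members were then set side by side over the 4 classes with at least 50 cells in each library. In the vehicle library Cebpb was highest in microglia-like cells (219 CPM), followed by pericyte or smooth muscle-like cells at 62.6 CPM (52.5 to 74.2), erythrocyte-like cells at 34.96 CPM (22.2 to 52.5) and endothelial-like cells at 29.3 CPM (26.3 to 32.5). The last 2 had overlapping intervals. In the tamoxifen library the order was the same among the first 2, with 1134 CPM in microglia-like and 239.7 CPM (209 to 273) in pericyte or smooth muscle-like cells. Erythrocyte-like cells followed at 136 CPM (107 to 170) and endothelial-like cells at 126 CPM (115 to 137), again with overlapping intervals. Each of the 4 classes held more Cebpb in the tamoxifen library, and in none did the intervals of the libraries overlap. The log2 ratio was 1.94 (1.62 to 2.26) in pericyte or smooth muscle-like cells and 1.96 (1.27 to 2.70) in erythrocyte-like cells. Of the 3 members, Cebpb alone lay past 2-fold higher in endothelial-like, pericyte or smooth muscle-like and erythrocyte-like cells, beside 0.667%, 2.61% and 5.06% of all measured genes, and no member lay past 2-fold lower, beside 2.84%, 2.49% and 6.9%. Ratios above 0 were held by 2 of 3 members in each of these classes, beside 61.2%, 56.2% and 45.6% of genes.

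Cebpa was also highest in microglia-like cells in both libraries. Pericyte or smooth muscle-like cells held 41.1 CPM (33.0 to 50.7) in the vehicle library and 32.5 CPM (22.0 to 46.5) in the other. Endothelial-like cells held 28.3 CPM (25.4 to 31.5) and 16.2 CPM (12.5 to 20.6), and erythrocyte-like cells 15.2 CPM (7.29 to 28.0) and 20.2 CPM (10.1 to 36.1). In the vehicle library the pericyte or smooth muscle-like interval lay above the other two, which overlapped. In the tamoxifen library the pericyte or smooth muscle-like level overlapped with that of erythrocyte-like cells, and the latter with that of endothelial-like cells. In endothelial-like cells Cebpa was lower in the tamoxifen library, with a log2 ratio of -0.81 (-1.22 to -0.42), the opposite direction to microglia-like cells. That direction turned at a clustering resolution of 1.0, where endothelial-like cells held 27.5 CPM of Cebpa in the vehicle and 34.7 CPM in the tamoxifen library. Microglia markers were lower in the same endothelial-like cells, at a summed 5432 and 2634 CPM.

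Cebpg varied less over the classes. Vehicle microglia-like and endothelial-like cells held 138 and 138 CPM, with a log2 difference between the classes of 0.00 (-0.09 to 0.10). Pericyte or smooth muscle-like cells held 122 CPM (108 to 138) and erythrocyte-like cells 86.6 CPM (65.6 to 112). In the tamoxifen library the levels were 200.3, 159, 143 and 84.4 CPM in that order of classes, and the microglia-like level was the highest, by a log2 difference of 0.34 (0.20 to 0.48) over endothelial-like cells. The intervals of the endothelial-like and pericyte or smooth muscle-like levels overlapped.

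**Figure D1:**
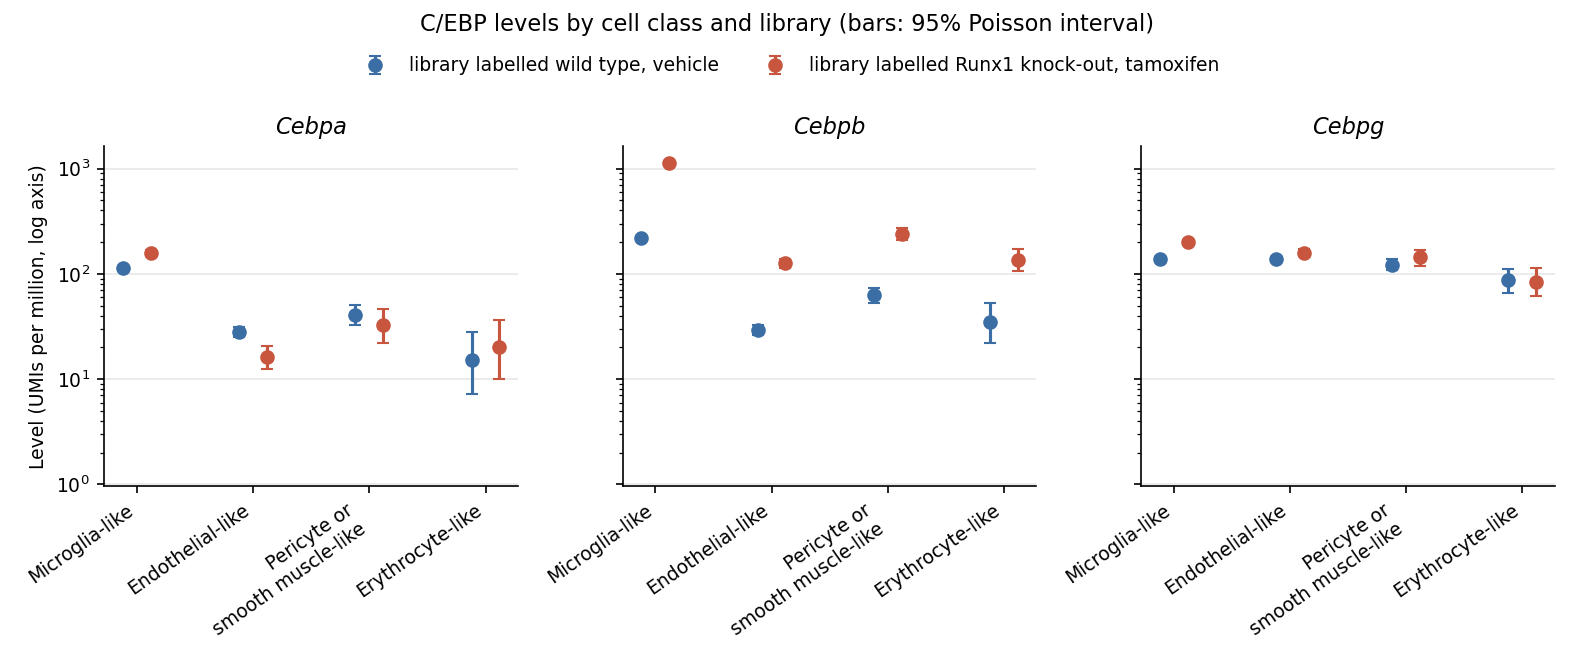
Level of Cebpa, Cebpb and Cebpg (y axis, CPM, log axis) in 4 cell classes (x axis) for the 2 libraries, with 95% Poisson intervals as bars. Cebpb is higher in the tamoxifen library in all 4 classes, and Cebpg lies between 84.4 and 200.3 CPM throughout.

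Outside microglia-like cells the Cebpb counts kept step with microglial RNA in the tamoxifen library. There were 49.8 Cebpb UMIs (48.6 to 51.0) per 1000 UMIs of the 12 microglia markers in its microglia-like cells. Endothelial-like cells held 47.7 per 1000 (43.5 to 52.1), erythrocyte-like cells 46.1 (36.0 to 58.3) and pericyte or smooth muscle-like cells 57.0 (49.6 to 65.3). The 4 intervals overlapped, although the Cebpb level itself ran from 126 to 1134 CPM. In the vehicle library the values were 11.9 (11.5 to 12.3) in microglia-like cells, 9.24 (7.73 to 10.9) in pericyte or smooth muscle-like cells, 7.06 (4.47 to 10.6) in erythrocyte-like cells and 5.40 (4.85 to 5.99) in endothelial-like cells. There the values of all the other classes lay below the microglia-like one, without overlap of intervals.

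Cebpa lay in a narrower range on this scale than Cebpg. Per 1000 microglia marker UMIs, Cebpa was between 5.21 and 6.18 in 3 vehicle classes and at 3.07 (1.47 to 5.65) in erythrocyte-like cells, and between 6.13 and 7.74 in the tamoxifen library. The vehicle microglia-like value, 6.18 (5.90 to 6.48), lay above the endothelial-like one, 5.21 (4.67 to 5.80), and the erythrocyte-like one without overlap. Cebpg went from 7.52 in vehicle microglia-like to 25.4 in vehicle endothelial-like cells, and from 8.79 to 60.2 in the other library. A whole-library background scaled on the microglia markers was also subtracted from endothelial-like cells. This assigns all their microglia marker UMIs to background and so takes out an upper limit, 45.1% of their UMIs in the vehicle and 19.97% in the tamoxifen library. Cebpg was then at 140.03 and 155 CPM. Cebpa and Cebpb were at 0, a value any gene takes whose count per marker UMI is no higher than in the whole library, so it does not show that they are absent. In the tamoxifen library the Cebpb level of endothelial-like cells, whose log2 ratio was 2.099 (1.90 to 2.30), stood to their microglia markers as in microglia-like cells, within counting error.

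**Figure D2:**
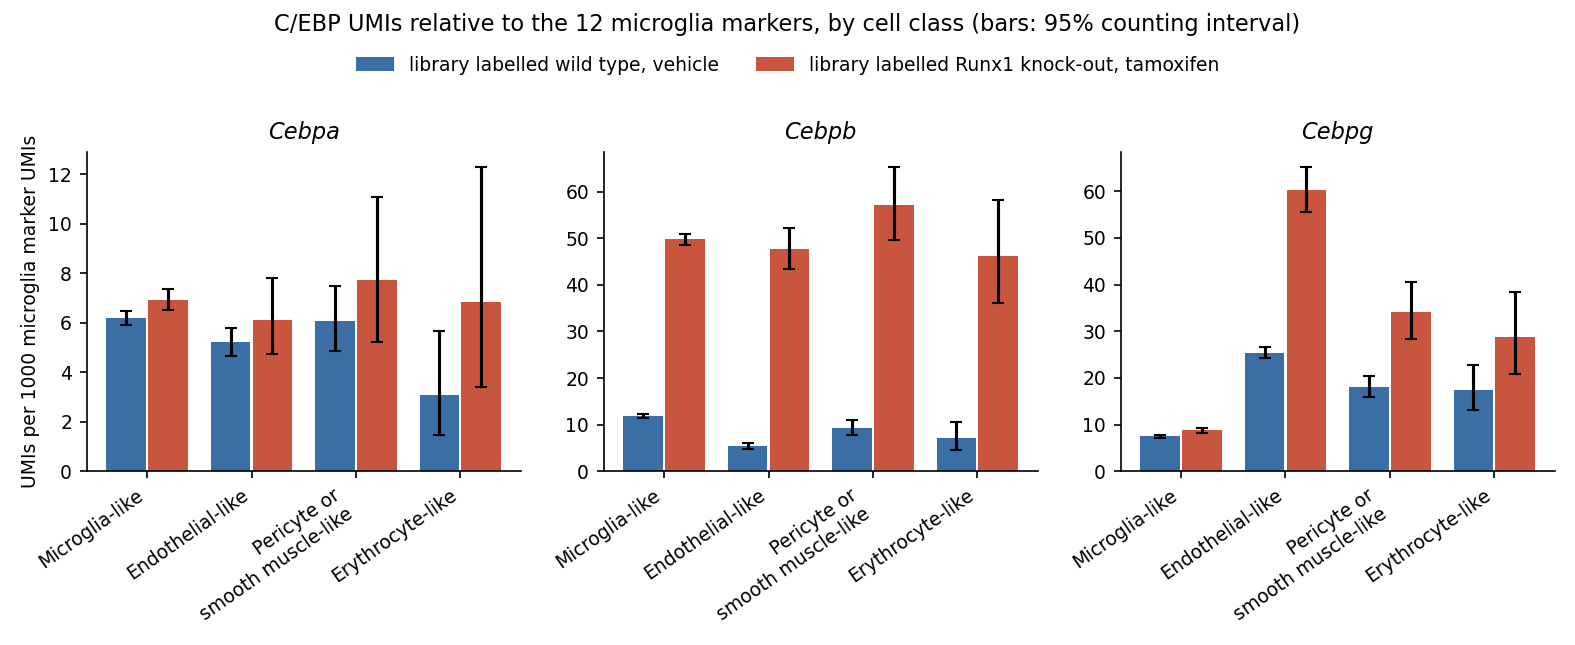
UMIs of each C/EBP gene per 1000 UMIs of the 12 microglia markers (y axis) in 4 cell classes (x axis) for the 2 libraries, with 95% counting intervals as bars. Cebpb lies between 46.1 and 57.0 in all 4 classes of the tamoxifen library, whereas Cebpg is lowest in microglia-like cells of both libraries.

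Small groups of cells were counted as well. Cluster 9, with cycling markers beside microglial and natural killer cell markers, held Cebpb at 126 CPM (78.9 to 191) in 19 vehicle cells and 899 CPM (729 to 1096) in 17 cells of the other library. Cluster 11, with MHC class II, border macrophage and B cell genes, held 140.4 CPM (93.3 to 203) in 18 cells and 708 CPM (426 to 1105) in 4 cells. The single neutrophil-like cell of the tamoxifen library had 16 Cebpb UMIs among 2804 UMIs, and the 6 vehicle ones had 3 together. Ependymal-like cells held 30.1 CPM in 17 and 111 CPM in 26 cells. Of these small groups, all but the single neutrophil-like cell held less Cebpb than microglia-like cells of the same library, though the interval of cluster 11 was wide in the tamoxifen library.

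Within microglia-like cells the members varied in different ways over finer clusters. At a clustering resolution of 1.0 the vehicle cells fell into cluster 1 (845 cells), cluster 3 (766 cells, led by Spp1, Cxcl2, Ccl3 and Il1b) and cluster 6 (562 cells, with the highest median depth, 9974 UMIs). Cells of the other library fell into cluster 4 (750 cells, led by Cebpb, Marcksl1 and Cfp, with Tnfaip3, Socs3 and Nr4a1 further down) and cluster 5 (598 cells, with Crybb1 and P2ry12 among them). Cebpb was at 178 CPM (165 to 192), 246 CPM (233 to 259.7) and 222 CPM (211 to 234) in clusters 1, 3 and 6, and at 1305 CPM (1270 to 1341) and 812 CPM (774 to 852) in clusters 4 and 5. The lowest cluster of the tamoxifen library was above the highest vehicle cluster, and within each library the highest level was in cluster 3 and in cluster 4. The intervals of clusters 3 and 6 overlapped, and Cebpb itself headed the list of leading genes of cluster 4.

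Cebpa had another order. It was at 94.3 CPM (86.2 to 103) in cluster 3 against 121 CPM (110.3 to 133) in cluster 1 and 126 CPM (118 to 135) in cluster 6. In the tamoxifen library it was at 150.4 CPM (139 to 163) in cluster 4 and 171 CPM (153 to 189) in cluster 5, whose intervals overlapped. Cebpg was at 142, 124 and 149 CPM in clusters 1, 3 and 6 and at 199 and 202 CPM in clusters 4 and 5. For all 3 genes both clusters of the tamoxifen library lay above all 3 vehicle clusters in CPM, and no CPM interval crossed between the libraries. With every cell thinned to equal depth, this order did not hold for Cebpa. A Cebpa UMI was then present in 19.2% (16.0 to 22.7) of cells in vehicle cluster 6. In tamoxifen cluster 4 the share was 17.2% (14.6 to 20.1), with overlapping intervals. Cebpb and Cebpg kept the order in these shares, although the Cebpg interval of cluster 5 overlapped those of clusters 1 and 6.

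**Figure D3:**
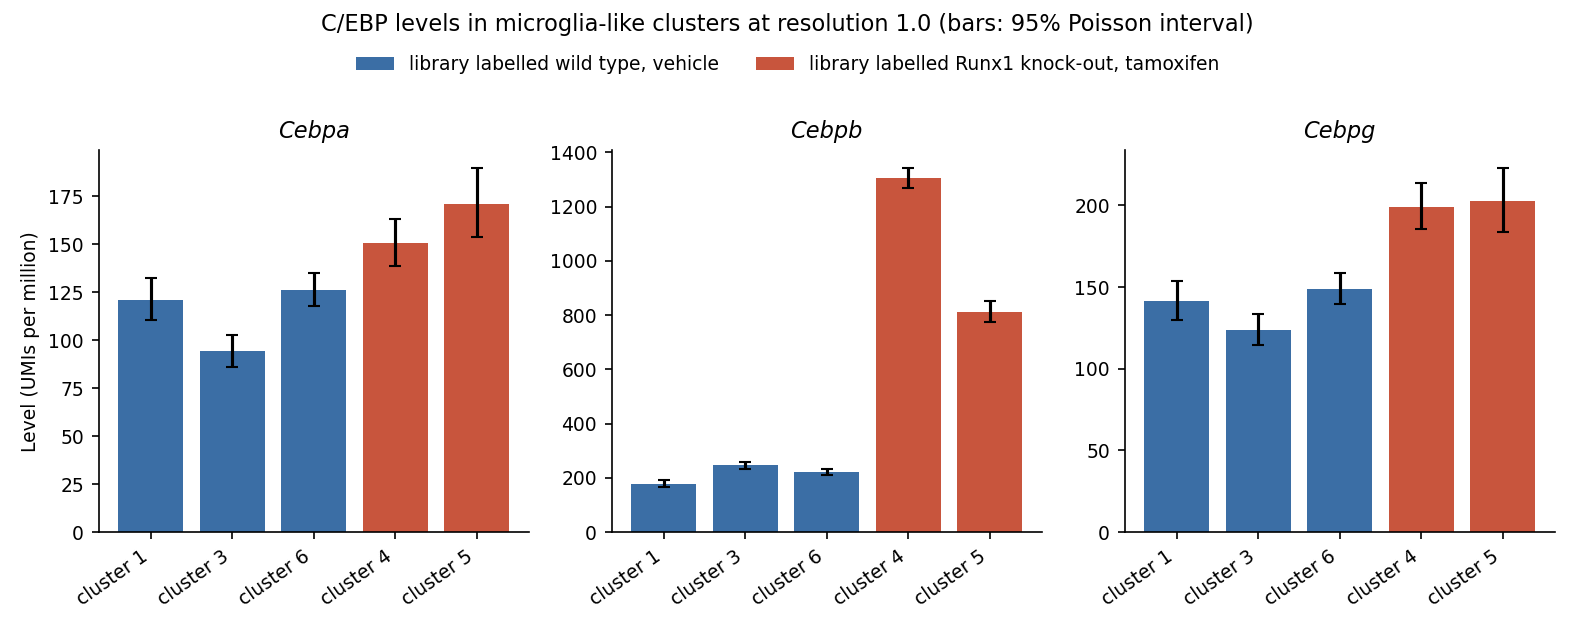
Level of each C/EBP gene (y axis, CPM) in the 5 microglia-like clusters found at resolution 1.0 (x axis), coloured by library, with 95% Poisson intervals. Cebpb is highest in cluster 4 at 1305 CPM, and Cebpa is lowest in cluster 3 at 94.3 CPM.

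For the spread over single cells, every cell was thinned to 1500 UMIs, and no microglia-like or endothelial-like cell fell below that number. A Cebpb UMI was then present in 27.0% (25.1 to 28.9) of 2183 vehicle microglia-like cells and in 68.7% (66.2 to 71.2) of 1353 tamoxifen ones. Without thinning, where the median cell held 5530 and 3466 UMIs, the shares were 65.4% and 88.6%. As a background, thinned endothelial-like cells (5959 and 3593.5 UMIs in the median cell before thinning) held a Cebpb UMI in 3.67% (2.81 to 4.69) and 15.99% (13.6 to 18.7). The mean per thinned microglia-like cell was 0.343 and 1.70 UMIs, and 1.28% (0.85 to 1.85) of vehicle cells against 24.5% (22.3 to 26.9) of the others had 3 or more.

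The variance of Cebpb over microglia-like cells exceeded its mean. Variance over mean, which is 1 when counting noise is the sole source of spread, was 1.19 in the vehicle library and 2.33 in the tamoxifen library. In the latter a Poisson distribution of the same mean would put a UMI in 81.8% of cells, against the 68.7% seen, so there were more cells without a UMI, as well as cells with many. The highest thinned cell held 5 Cebpb UMIs in the vehicle library and 15 in the tamoxifen library. Within cluster 4 and cluster 5 the variance over mean was still 2.35 and 1.91, so it exceeded 1 within both. Variance over mean also rises with the mean at equal relative spread, and the library means were 0.343 and 1.70 UMIs. The values of the libraries therefore do not compare their relative spread between cells.

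Cebpa and Cebpg were detected in fewer cells. Cebpa was present in 15.1% (13.6 to 16.6) and 19.0% (16.9 to 21.2) of thinned microglia-like cells, with variance over mean of 1.07 and 1.21. The latter was close to the 1.19 of Cebpb in the vehicle library, at unlike means of 0.231 and 0.343 UMIs. Cebpg was present in 18.9% (17.3 to 20.6) and 26.2% (23.8 to 28.6), with 0.96 and 1.04. Endothelial-like cells held Cebpa in 4.58% and 2.15% and Cebpg in 18.1% and 22.6% of cells. The endothelial-like Cebpg interval, 16.2 to 20.03 in the vehicle and 19.8 to 25.5 in the tamoxifen library, overlapped the microglia-like one in both.

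**Figure D4:**
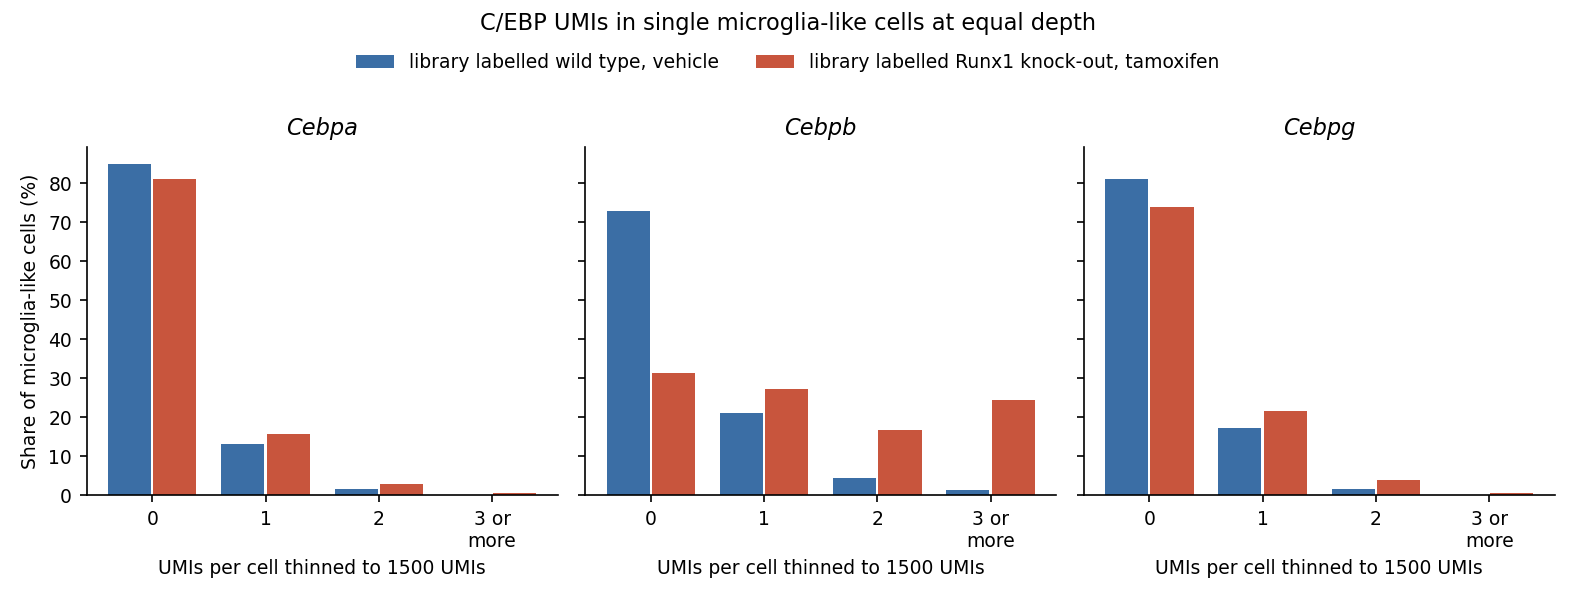
Share of microglia-like cells (y axis, percent) by the number of UMIs of each C/EBP gene per cell thinned to 1500 UMIs (x axis), for the 2 libraries. Cells with 3 or more Cebpb UMIs make up 24.5% of the microglia-like cells in the tamoxifen library and 1.28% in the vehicle library.

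Detection of one member in a cell told little about another. In the vehicle library 3.48% of microglia-like cells held both Cebpa and Cebpb, beside 4.07% if they were independent, and in the tamoxifen library 12.9% did, beside 13.1%. Cebpb and Cebpg were found together in 4.86% and 18.1% of cells, beside 5.10% and 18.0%. Pearson correlations of the 3 pairs over single cells lay between -0.037 and 0.029 in both libraries, over counts of mostly 0 and 1. None of the members was seen in 50.1% of vehicle and 18.8% of tamoxifen thinned cells, and all 3 were seen in 0.504% and 3.77%.

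Some genes, but not others, were higher in cells with more Cebpb UMIs. Thinned microglia-like cells were set by their number of Cebpb UMIs, 0, 1, or 2 and more (1594, 463 and 126 vehicle cells and 423, 370 and 560 of the other library), and other genes were scaled to the remaining UMIs. Junb and Ccl4 are also among the genes ranked below for their correlation with Cebpb in these same cells. Junb, a subunit of the AP-1 factor, went from 3722 through 4088 to 4939 CPM in the vehicle library and from 6145 through 7061 to 8925 CPM in the tamoxifen library. The chemokine gene Ccl4 was at 6416 CPM without a Cebpb UMI and 8097 CPM with at least 2 in the vehicle library, and at 7888 and 10601 CPM in the tamoxifen library. Nfkbiz, which encodes an inducible nuclear IκB protein, went from 191 (174 to 209) to 281 (210.4 to 367) and from 285 (245 to 330.0) to 432 (389 to 479) CPM. Tnf went from 274 to 334 CPM in the vehicle library, with overlapping intervals, and from 362 to 581 CPM in the other. The AP-1 gene Jun was at 3993, 4102 and 3964 CPM in the vehicle library, and Fos at 1113 CPM without a Cebpb UMI and 1182 CPM with at least 2, both with overlapping intervals. Jun in the tamoxifen library went from 5021 (4848 to 5199) to 5551 (5393 to 5713) CPM. Fos there went from 1768 (1666 to 1875) to 2190 (2091 to 2292) CPM, so both rose without overlap. The chemokine gene Cxcl2 went from 159 (144 to 176) to 355 (275 to 451) CPM in the vehicle library. In the tamoxifen library Cxcl2 was at 151, 121 and 202 CPM, and the intervals of the first and last overlapped.

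Several other genes were not higher with more Cebpb UMIs. P2ry12, a purinergic receptor of surveying microglia, went down from 3708 (3560 to 3861) to 3136 (3017 to 3258) CPM in the tamoxifen library and from 1912 (1857 to 1968) to 1680 (1499.9 to 1875) CPM in the vehicle library, where the intervals overlapped. Csf1r, the receptor that microglia need to survive, was at 2189 and 2170.5 CPM in the tamoxifen library. The microglia markers Tmem119 and Cx3cr1 were at 1696 and 1619 CPM and at 1450 and 1357 CPM there, with overlapping intervals. Spi1, which encodes PU.1, was at 424 and 402 CPM, and Cebpa and Cebpg at 159 and 154 CPM and at 205 and 209 CPM, all with overlapping intervals. Summed endothelial markers were at 2121 and 2188 CPM there and at 6671 and 6544 CPM in the vehicle library, with overlapping intervals in both. The median depth before thinning was 3278 and 3453 UMIs for cells with 0 and at least 2 in the tamoxifen library.

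**Figure D5:**
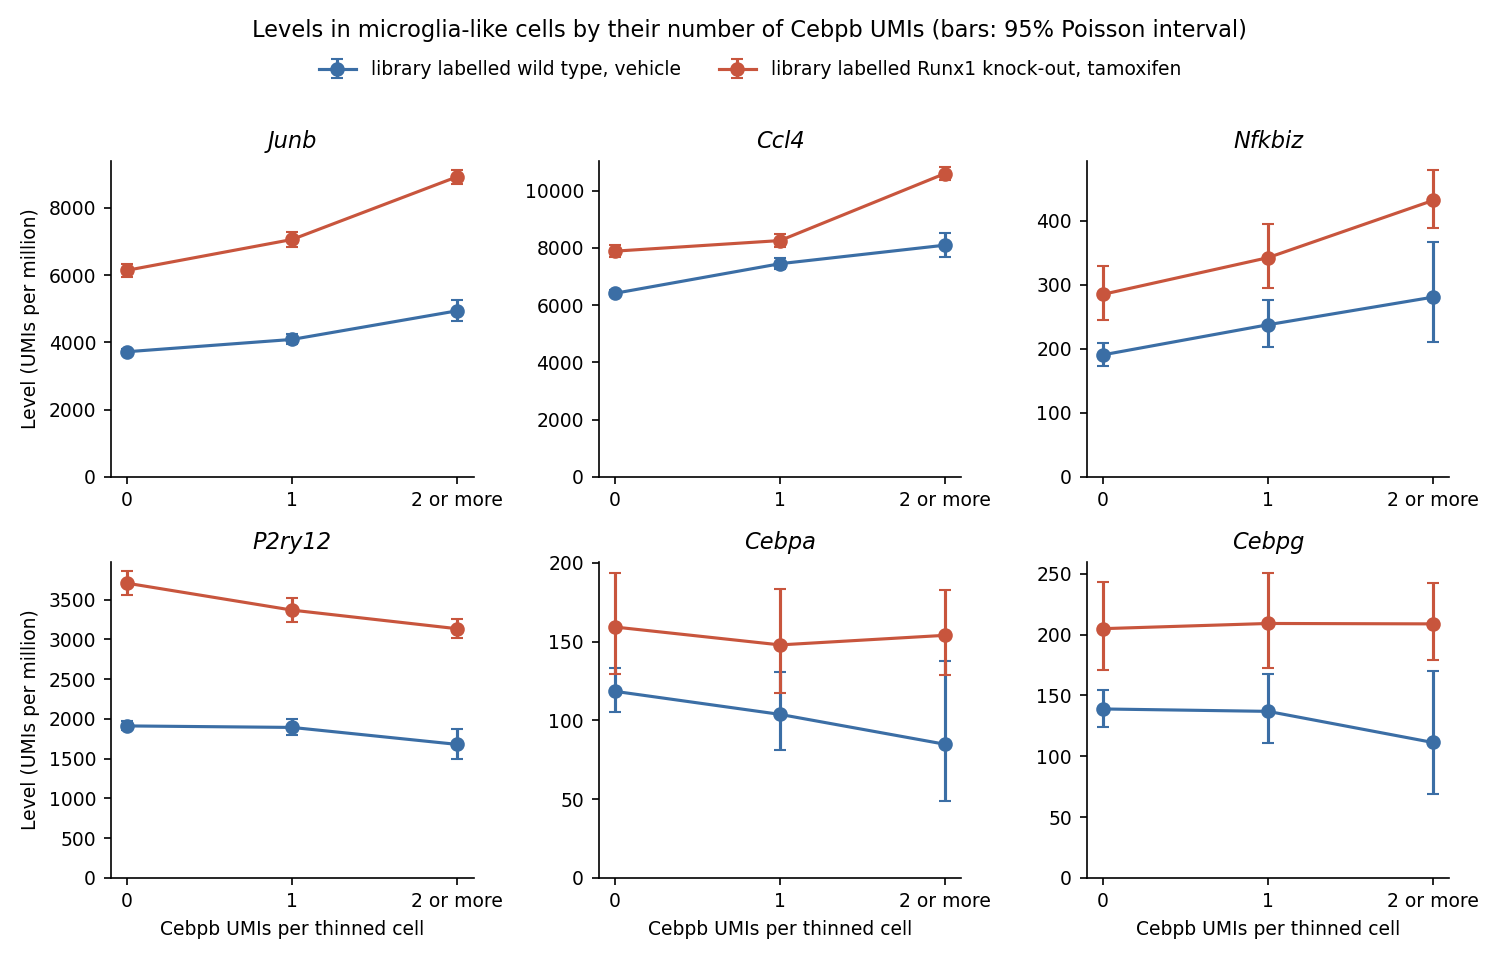
Levels of 6 genes (y axis, CPM of the UMIs other than Cebpb) in microglia-like cells with 0, 1 or at least 2 Cebpb UMIs after thinning (x axis), for the 2 libraries, with 95% Poisson intervals. Junb reaches 8925 and 4939 CPM in cells with at least 2, while Cebpa and Cebpg have overlapping intervals across the 3 sets of each library.

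The genes most like Cebpb over single microglia-like cells, ranked by the lower of the 2 within-library Pearson correlations among 2439 genes, were Junb (0.104 in the vehicle library and 0.274 in the other), Nfkbia (0.102 and 0.222), Ccl4 (0.101 and 0.167), Zfp36 (0.094 and 0.152), Atf3 (0.085 and 0.189), Socs3 (0.084 and 0.174), Ifrd1 (0.083 and 0.171) and Pim1 (0.083 and 0.105). These are weak values over sparse counts that share a library and a fixed depth. For Cebpa and Cebpg the highest values were 0.057 with Stxbp3 and 0.056 with Uqcr11. Over the 8 profiles of 4 classes by 2 libraries, the genes most like Cebpb were Gm12166 (0.990), Marcksl1 (0.980), Nr4a1 (0.975), Crybb1 (0.974) and Cd164 (0.964). For Cebpa they were Ppt1 (0.997), Arhgap39 (0.994), Xlr (0.993), Sat1 (0.992) and Cd9 (0.992), and for Cebpg they were Sdcbp (0.988), Mfsd1 (0.980), Rps6ka4 (0.975), Traf5 (0.975) and Nfix (0.975). The profiles of a library share its free RNA and depth.

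The remaining members of the wider family lay nearer to equality or below it. Ddit3, which encodes the stress-induced dimer partner CHOP, was lower in microglia-like cells of the tamoxifen library, at 91.3 and 57.8 CPM, a log2 ratio of -0.66 (-0.83 to -0.49), and was at -0.94 in endothelial-like cells. Cebpz was at 106 and 112 CPM (0.08, -0.05 to 0.21). Cebpe, a factor of granulocyte maturation, had 7 UMIs in vehicle microglia-like cells and none in the others, where 3 UMIs would be 0.489 CPM. It had 5 UMIs in the 6 vehicle neutrophil-like cells, or 124 CPM. Of 5 measured family genes, the members included, 1 lay past 2-fold higher and 0 past 2-fold lower, beside 1.82% and 5.4% of all genes, and their median log2 ratio was 0.47.

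In microglia-like cells, possible partners with a basic leucine zipper were mostly higher in the tamoxifen library, each by less than Cebpb. Of 18 measured, 15 had a ratio above 0 and 3 below, 2 lay past 2-fold higher and 0 lower, and the median log2 ratio was 0.43. Over all measured genes 46.6% were above 0, 1.82% past 2-fold higher and 5.4% past 2-fold lower, with a median of -0.04. Batf, a partner of Jun proteins, was at 17.8 and 50.5 CPM (1.502) and Maff, a small Maf protein, at 41.1 and 90.1 CPM (1.13). The AP-1 genes Junb, Fos and Jund were at 0.94, 0.85 and 0.79, and Maf at 0.63.

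Genes that act on C/EBP factors or on their expression had 15 of 22 measured members above 0, a median of 0.17, and 1 past 2-fold higher, Egr2 at 1.01, beside 46.6% above 0 and 1.82% past 2-fold higher over all genes. Stat3, through which cytokines of the interleukin 6 family induce Cebpb and Cebpd, was at 72.9 and 122 CPM (0.74), and Il6ra, the interleukin 6 receptor gene, at 152 and 253 CPM (0.74). Trib1, whose product directs C/EBPα to degradation, was at 57.1 and 90.6 CPM (0.67). Runx1 itself was at 0.96, and Csf1r at 0.68. Spi1 was at 386 and 422 CPM (0.13).

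Genes described as C/EBP targets in myeloid cells or in the acute phase did not share a direction. Of 44 listed, 19 were measured in microglia-like cells, of which 11 had a ratio above 0 and 8 below it. Their median was 0.34, and 2 lay past 2-fold higher and 4 past 2-fold lower, beside 46.6% above 0, 1.82% higher and 5.4% lower over all genes. The higher ones were Socs3, a feedback inhibitor of cytokine signalling (546 and 1214 CPM, 1.15), and Itgam, the integrin subunit CD11b (185 and 381 CPM, 1.04). Lyz2, which encodes lysozyme, was at 592 and 113 CPM (-2.39), and Ccl5 at -1.77. The neutrophil genes S100a8 and S100a9 were at -5.01 and -3.69, and were lower by similar amounts in endothelial-like cells, at -4.86 and -3.64. Lyz2 and Ccl5 were lower in endothelial-like cells too, at -3.14 and -2.24. In endothelial-like cells 21 of the list were measured, with 1 past 2-fold higher, 7 past 2-fold lower and a median of -0.81, beside 0.667%, 2.84% and 0.09 over all genes. Microglia markers in those cells were at 5432 and 2634 CPM, and their part in this was not tested.

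Genes of the integrated stress response and of amino acid or glutathione metabolism, listed as shared by ATF4 and C/EBPγ, were centred near 0. Of 14 measured, 6 had a ratio above 0 and 8 below, 0 lay past 2-fold, and the median was -0.05. The share above 0 was near that of all genes, 46.6%, of which 1.82% lay past 2-fold higher and 5.4% lower. Ppp1r15a, a stress-induced phosphatase subunit, was at 559 and 1086 CPM (0.96) and Gclc, a subunit of the rate-limiting enzyme of glutathione synthesis, at 0.65. Gclm, the other subunit of that enzyme, was at -0.62, and the amino acid transporter genes Slc7a5 and Slc3a2 were at -0.63 and -0.51.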

How the data were processed

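The deposited matrices held raw UMI counts per gene and barcode, made by the authors from 10x Genomics 3′ version 2 libraries per the labels. STAR, Cell Ranger 2.0.1 and Seurat 2.1.0 are named in the submitters' processing notes, without their roles. The sources used here do not say which step chose the barcodes. The members and gene lists were chosen with earlier results of these data known. Cells needed 300 genes or more and no more than 10% mitochondrial UMIs, a filter that took out 0 vehicle and 8 tamoxifen barcodes. Both libraries were clustered together (scanpy 1.11.5, leidenalg 0.10.2) on 2000 variable genes, 30 principal components and 15 neighbours at resolution 0.5, leaving out the C/EBP members, Runx1 and sex-linked genes. Doublets were left in, except in one alternative.

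Clusters were named from 20 marker lists by a score chosen once the clusters were known. A marker counted from 20 CPM and over the midpoint of its lowest and highest cluster. A name needed 3 counted markers, 50% of the list, and no other list with more markers among the top 10 genes by fold or a larger share. Clusters 4 and 11 stayed unnamed. UMIs were summed per class and library. Intervals are exact Poisson for CPM, exact Clopper-Pearson for shares and exact conditional binomial for ratios, at 95% (scipy 1.17.1). Genes counted as measured from 20 CPM in either library, and 0 UMIs entered ratios as 3. Calculations were tested on simulated data.

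Named genes were the members, up to 6 of each list by absolute log2 ratio, and those most like a member: 5 over class profiles (Pearson correlation of log2 CPM with a pseudocount of 20 CPM) and 8 over single cells (genes from 50 CPM in both libraries). The genes set beside the number of Cebpb UMIs, Spi1 and the overlapping genes were chosen outside that rule, after their values were seen. Positions of genes come from GENCODE M21 (GRCm38).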

Additional observations from a re-analysis of the deposited data

Results flagged for a closer look

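Cebpa had log2 ratios of opposite sign in 2 classes, 0.47 in microglia-like cells and -0.81 in endothelial-like cells. The difference between the classes was not tested, since each group had 1 library. Microglia markers in the endothelial-like cells summed to 5432 CPM in the vehicle library and 2634 CPM in the tamoxifen library, and the Cebpa ratio per microglia marker UMI was 0.23 there. At a clustering resolution of 1.0 endothelial-like Cebpa was at 27.5 and 34.7 CPM, so the opposite sign was lost under that setting too.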

How the results depend on the processing

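In microglia-like cells the Cebpb log2 ratio ran from 2.01 to 2.41 over 13 alternatives, past 2-fold in all 13, that of Cebpa from 0.17 to 0.56 and that of Cebpg from 0.23 to 0.57. Unless the construction shows it, the cause of a shift was not tested. With background at its upper limit taken out, the microglia-like ratio was 0.18 for Cebpa and 2.01 for Cebpb, 174 genes were past 2-fold higher and 86 lower, and 80 were lower in endothelial-like cells. Without a minimum level, which adds genes of few counts, 659 were higher and 1568 lower in microglia-like cells. In endothelial-like cells 26 were higher with median-ratio scaling and 102 with thinned cells. Thinned to 1000 UMIs, vehicle and tamoxifen microglia-like cells held a UMI in 11.8% and 14.3% (Cebpa), 20.6% and 57.4% (Cebpb) and 13.1% and 17.7% (Cebpg). Without thinning the shares were 47.9% and 42.9%, 65.4% and 88.6%, and 56.6% and 54.0%, so Cebpa and Cebpg turned the other way at unequal depth. At resolution 1.0 a cluster of 135 tamoxifen cells at 491 CPM of Cebpb was named endothelial-like. Clusters of 321 vehicle and 6 tamoxifen cells and of 88 and 41 cells, which held endothelial markers, were unnamed there and so outside the class. Endothelial-like cells then held 27.5 CPM of Cebpa in the vehicle and 34.7 CPM in the tamoxifen library, which also turned the direction of Cebpa. Their Cebpb was at 27.3 and 206 CPM, a larger difference than at resolution 0.5. Chosen after seeing the data, all kept cells in place of the class gave 0.31 for Cebpa and 0.36 for Cebpg. Also chosen then, scaling per microglia marker UMI gave 0.17, 2.06 and 0.23 for Cebpa, Cebpb and Cebpg in microglia-like cells and 0.23, 3.14 and 1.24 in endothelial-like cells, which reversed the sign for Cebpa there as well. No paired analysis was possible because each group had 1 library, and leaving out a replicate was not possible either.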
